A study of Mus musculus with 6 samples.

Results

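The retinoid receptors are 6 genes of the mouse, Rara, Rarb and Rarg for the retinoic acid receptors (RAR) and Rxra, Rxrb and Rxrg for the retinoid X receptors (RXR). Their chromatin accessibility was read from ATAC-seq of mouse kidney, an assay in which the Tn5 transposase inserts adapters into open chromatin. The authors deposited peaks, which are stretches where such insertions exceed the background that the peak caller estimated. Members were found by position, with no measured value used. An interval of the peak list belonged to a receptor gene if it overlapped the stretch from 3 kb upstream of the gene start to the gene end, as annotated by GENCODE M39 on GRCm39. This rule gave 116 intervals of the 279569 in the list. Rarb held 59, Rxra 35, Rarg 8, Rara 7, Rxrg 5 and Rxrb 2.

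The labels give 6 kidney libraries whose treatment is Control, 3 WT and 3 with a tubule-specific Acly knockout (Acly cKO). By the study's methods the tissue was kidney cortex, the WT mice were Acly fl/fl littermates without Cre, and the Acly cKO mice were Acly fl/fl with Ksp-Cre. Ksp-Cre is driven by Cdh16 and recombines in the tubular epithelium, so that glomerular, vascular, immune and stromal cells of an Acly cKO kidney keep the gene. WT libraries came from batches 1 and 2 and Acly cKO libraries from batches 4 and 5, so that genotype and batch cannot be told apart. By its peak names the deposited call was made on all libraries pooled, and which libraries entered the pool is not stated. The study's methods also name WT data sets deposited earlier, which were not analysed here and may be part of the pool. No column belongs to 1 library. The values below therefore carry no replicate error, the genotypes could not be compared, the loss of Acly could not be checked, the depth of each library is unknown, and no test was run.

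RAR and RXR are nuclear receptors, transcription factors that a small lipid ligand switches. Retinoic acid, made from vitamin A, binds RAR, which sits on DNA as a pair with RXR and recruits corepressors without ligand and coactivators with it. RXR is also the partner of the vitamin D, thyroid hormone, PPAR, LXR and FXR receptors. A pair of receptors reads a half-site close to AGGTCA that is repeated in the same direction, and the number of bases between the repeats, the spacer, favours one pair over another. RAR with RXR is best known for a spacer of 5 bases. In the kidney retinoic acid signalling is known for its part in nephron formation and in the response of tubule cells to injury. Internal promoters of the RAR genes are textbook cases of retinoic acid response elements, through which the receptors act on their own genes.

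Because the receptors are known to bind repeats at their own genes, such repeats were sought in the open chromatin there. A half-site was AGGTCA or one of its common variants, which are AGTTCA, then the form GGGTCA, and then the form GGTTCA, on both strands. The regions of the 6 genes held 6 repeats with a spacer of 5, and 4 of them lay inside an interval. Across the genome 1427 of 9323 such repeats, 15.3%, lay inside an interval, but that share is no expectation for these genes. Intervals cover 96.9% of the region of Rara, 97.2% of that of Rxrb and 84.6% of that of Rarg, so that nearly any position there is inside one. Of the genes that held a repeat, only Rarb, covered to 12.9%, is mostly outside. The 4 repeats are printed 5′ to 3′ as 30 bases of the GRCm39 genome, with the repeat and its spacer in capitals, because they are the matches to the receptors' own binding word in the peaks of the receptor genes.

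Rara, chr11:98850828-98850857, plus strand: caggcgAGTTCAGCAAGAGTTCAgccgaat
Rarb, chr14:5894228-5894257, plus strand: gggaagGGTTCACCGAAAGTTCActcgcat
Rarg, chr15:102159246-102159275, minus strand: aggtcagGGTTCAAAGTGAGGTCAcggtat
Rxrb, chr17:34255808-34255837, plus strand: gagctgTGACCTTTGAGTGACCTgcaggtc

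The Rarb repeat, whose letters are those of the classic response element of this gene, was the one closest to a strong peak. It lay in the 5′ UTR, in exon 1 of the canonical transcript, 306 bp after the canonical start and 8 bp before the start of transcript Rarb-217. The nearest summit, the point of highest signal of a peak, was 67 bp away and had a fold enrichment of 36.2. Distances to summits are approximate at the scale of a read extension of 200 bp, which the caller applied. Fold enrichment is the pileup at a summit over the background that the peak caller estimated, as a linear ratio. The Rara repeat lay in intron 2, 396 bp upstream of the start of Rara-202, a transcript that begins 22804 bp after the canonical start. Its nearest summit was 376 bp away at 20.2-fold. The Rarg repeat lay 479 bp upstream of the start of Rarg-206 and 26 bp from a summit of only 3.21-fold, although the interval around it reached 33.1-fold elsewhere. Another half-site, AGGTCA, stands 1 base before this repeat, so that the stretch also holds a repeat with a spacer of 1. The Rxrb repeat lay in intron 7, 385 bp after the start of Rxrb-208 and 29 bp from a summit of 7.01-fold. It reads on the minus strand as AGGTCACTCAAAGGTCA and is the one of the 4 in which both half-sites are AGGTCA.

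Each of these 4 repeats was within 500 bp of an annotated start of its own gene and inside an interval, which held for 4 of the 6 receptor genes and for 100 of 21757 protein-coding genes, 0.460%. The limit of 500 bp was chosen after the sites had been seen, so the count of 4 was fixed by the rule. The share of 0.460% is therefore no expectation for these genes. Genes with many annotated starts and high coverage by intervals also offer more places for such a match. From the canonical start the repeats of Rara, Rarg and Rxrb lay 22408, 4325 and 5063 bp away. The other 2 repeats belonged to Rarb, at 233688 and 10432 bp upstream of the canonical start, and lay in no interval. The regions of Rxra and Rxrg held none.

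When the search was kept to windows of 200 bp centred on each interval's highest summit, 3 of the 116 windows held a direct repeat with a spacer of 1 to 5 bases, 2.59%, beside 0.945% of the windows of all intervals. For a spacer of 5 alone the numbers were 2 windows, 1.72%, beside 0.139%. These were the Rarb start and the Rxrb intron described above. The other repeat had a spacer of 1, the form also read by HNF4 and by RXR with PPAR, and lay in intron 3 of Rarb at a weak summit of 2.36-fold. With so few windows 1 match moves the share by 0.862 percentage points. Other words were counted in the same windows. The AP-1 word TGANTCA was in 15 windows (12.9% beside 12.4%), the GC box GGGCGG in 10 (8.62% beside 8.15%) and the ETS word CCGGAAG in 1 (0.862% beside 1.89%). The CTCF word CCANNAGNNGGC was in 7 windows (6.03% beside 4.23%), of which 4 were at Rxra. Among the intervals of at least 10-fold, CTCF was in 4 of 22 windows beside 5.81% of all, the GC box in 4 beside 29.0%, AP-1 in 2 beside 15.3% and ETS in 1 beside 6.70%. No window held the HNF1 word GTTAATNATT, the NF1 word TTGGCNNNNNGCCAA or the NRF1 word GCATGCGC, which 0.792%, 0.0712% and 0.560% of all windows held. These words were picked with the interval values known, and a match describes letters only.

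All 6 receptor genes had an interval within 1 kb of an annotated transcript start, which was true of 77.9% of protein-coding genes. In 5 genes that interval had a fold enrichment of at least 20, beside 51.6% of protein-coding genes, and the exception was Rxrg. A wide interval can take its value from a summit far from the start, so the highest summit within 1 kb of a start was also read. By that measure the same 5 genes reached 20-fold, beside 49.6% of protein-coding genes. Rxrb stood at 38.0-fold, Rara at 37.8, Rarb at 36.2, Rarg at 33.1, Rxra at 24.9 and Rxrg at 10.3. The median over the 16869 protein-coding genes with such a summit was 29.5, so that 4 receptor genes were above the middle gene and Rxra and Rxrg were below it. Over all protein-coding genes, with a missing summit taken as 0, the median was 19.7, and Rxra was above it. Of these genes 71.0% were lower than Rxrb, 56.0% lower than Rxra and 40.1% lower than Rxrg. The first 4 values lie within 5 units of fold enrichment of each other, and with no replicate error their order among themselves cannot be relied on. In a bulk tissue a promoter open in few cells and one weakly open in many cannot be told apart.

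**Figure D1:**
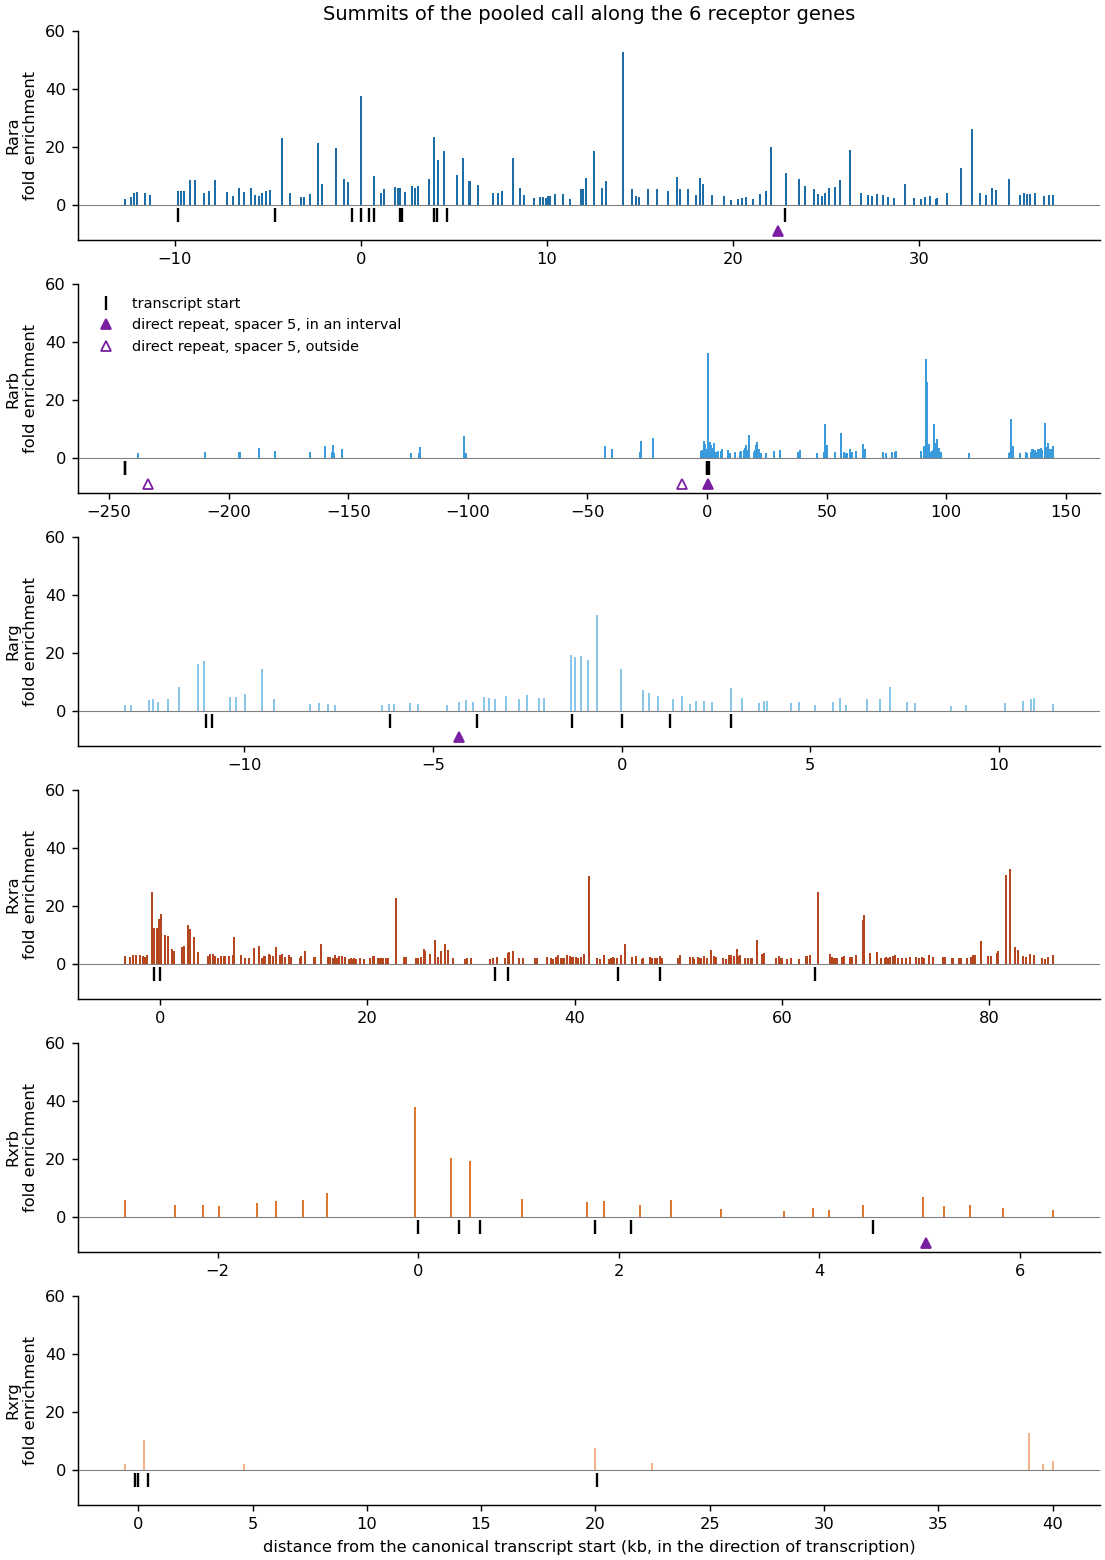
Fold enrichment (vertical axis) of each summit of the pooled call against its distance from the canonical transcript start in kb (horizontal axis, in the direction of transcription), 1 panel per receptor gene, with transcript starts as black ticks and direct repeats with a spacer of 5 as triangles, filled where they lie in an interval. Rara has its highest summit, 53.0-fold, 14088 bp after the canonical start, Rarb has 2 tall summits of 36.2- and 34.3-fold far apart, and Rxrg stays at or below 12.7-fold.

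The genes differed more in how the open chromatin was spread over them. Besides Rara, Rxrb and Rarg, with the coverage given above, Rxra was covered by intervals over 84.7% of its region. Rarb was covered to 12.9% and Rxrg to 9.65%. This share depends on the region, which was 9618 bp long at Rxrb and 393555 bp at Rarb. At Rarb 243396 bp lie between the far upstream starts, which lay in no interval, and the canonical start. At Rxrb the wide first interval is shared with the starts of neighbouring genes. The median protein-coding gene was covered to 16.7%, with an interquartile range from 3.65% to 43.7%, so that 4 receptor genes were above the upper quartile and Rarb and Rxrg below the median. The number of intervals does not show this, because the caller joins neighbouring summits. Rara held 139 summits in 7 intervals, and Rarb 159 summits in 59 intervals over a region of 393555 bp.

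Taken as a set, intervals at the receptor genes were wide. Their median width was 634 bp and their mean 1972 bp, beside 434 and 898 bp over the whole list, and 13 of 116 (11.2%) were at least 5000 bp wide, beside 2.00%. The 59 intervals of Rarb, however, had a median width of 435 bp, much as in the whole list. At the other genes the median width ran from 774 bp at Rxrg to 9824 bp at Rxrb. A rule of overlap also takes in wide intervals more readily. A fold enrichment of at least 5 was reached by 37 intervals, 31.9%, beside 24.5% of all intervals. At least 20-fold was reached by 14, 12.1%, beside 5.59%. The median fold enrichment was 2.91 beside 2.55. As in the whole list, most were small. Under 3-fold were 60 of 116, 51.7% beside 59.0%, with 35 of them at Rarb and 19 at Rxra. A q above 0.01 was found in 11, 9.48% beside 15.7%. By position, 14 intervals had their highest summit within 1 kb of a start of their own gene, wherever in the gene that start lay. Of the others, 74 had it in an intron, 6 in an exon and 22 upstream or downstream of the canonical transcript.

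**Figure D2:**
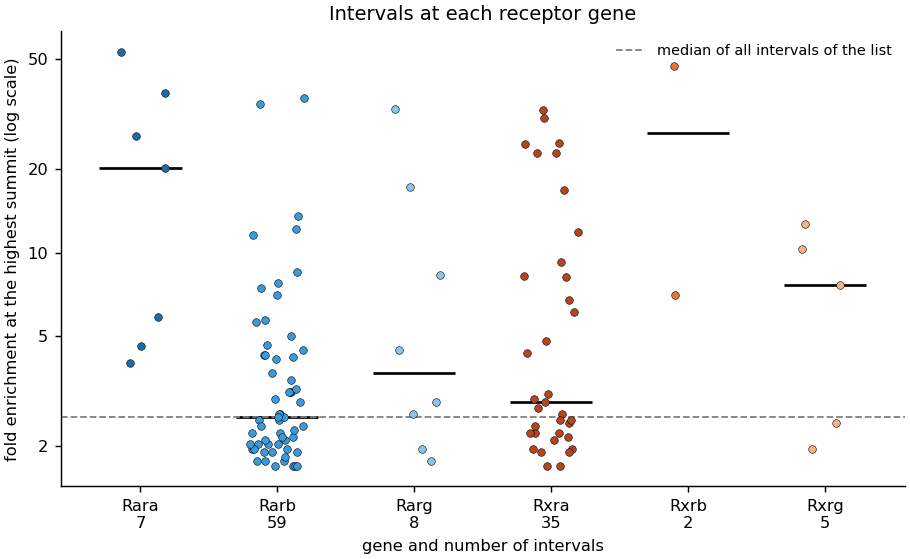
Fold enrichment at the highest summit of each of the 116 intervals (points, log scale) by receptor gene, with the number of intervals under each name, the gene's median as a bar and the median of all intervals of the list, 2.55, as a dashed line. Rara and Rxrb have medians of 20.2 and 27.0, whereas Rarb, with 59 intervals, has the median of the whole list. Rxrb has only 2 intervals, at 47.1 and 7.01, and the higher value comes from a summit at the start of Hsd17b8.

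Rara encodes RARα, the most widely expressed of the RAR proteins. The gene (chr11:98818612-98865768, plus strand) has 12 groups of annotated starts, and each was inside an interval. Of its 7 intervals 4 were at least 20-fold. The one over the canonical start, chr11:98818341-98837385, was 19045 bp wide and peaked at 37.8-fold, 10 bp from a start. Its other summits of at least 20-fold were 23.6-fold, 17 bp from the start of Rara-213 in intron 1, 23.0-fold, 373 bp from the start of Rara-215 upstream, and 21.5-fold, 1871 bp from any annotated start. The interval chr11:98848530-98858292 reached 20.2-fold 772 bp from the start of Rara-202, next to the repeat printed above, and chr11:98860341-98864863 reached 26.3-fold in intron 5. The highest summit of all 6 genes, however, was not at a start of a receptor transcript. It was at 98842522 in intron 2, in the interval chr11:98837677-98848350, at 53.0-fold and a −log10 q of 1072. The nearest start of Rara was 8716 bp away and the nearest annotated start of any gene, of the non-coding Gm72365, 2014 bp. A fold enrichment below that of this interval was found in 98.9% of all intervals.

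Rarb encodes RARβ, whose gene is itself switched on by retinoic acid in many cell types. It is the longest of the 6 genes (chr14:5650540-6041094, plus strand). A pair of far upstream starts, of Rarb-203 and Rarb-204, lay in no interval, and the canonical start 243396 bp further on lay in the interval chr14:5891339-5897985. That interval reached 36.2-fold 4 bp from a start, with the repeat 67 bp away. Intron 3 held a second site of nearly the same height, chr14:5984262-5991264, with 34.3-fold at 5985605, which is 91669 bp after the canonical start and 58730 bp from any annotated start. A neighbouring summit in that interval reached 26.3-fold. Another 3 intervals were between 10- and 20-fold, at 11.6-fold in intron 2, 13.6-fold in intron 3 and 12.2-fold in intron 6, and the last lies 9155 bp from a start of the next gene, Top2b. The other intervals of Rarb were below 10-fold, and 16 of all 59 had their highest summit upstream of the canonical start.

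Rarg encodes RARγ, known for its part in skin and skeleton. The gene (chr15:102143373-102165952, minus strand) had 2 intervals of at least 10-fold. In chr15:102148924-102159657 the canonical start had a summit of 14.5-fold 16 bp away. Higher values stood further upstream, with 33.1-fold 649 bp from the canonical group of starts and 19.2-fold 24 bp from the start of Rarg-208. The upstream starts of Rarg-201 and Rarg-205 shared the interval chr15:102163536-102168299, which reached 17.2-fold 52 bp from the start of Rarg-201. Starts of Rarg-206 and Rarg-207 in between had at most 4.78- and 2.55-fold within 500 bp.

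Rxra encodes RXRα, the main RXR of epithelial tissues and a partner of PPARα, FXR and the vitamin D receptor. Its 35 intervals (gene at chr2:27566452-27653330, plus strand) included 8 of at least 10-fold, more than any other receptor gene, and most of these were not at the first exon. The canonical start had 17.2-fold 75 bp away and the start of Rxra-204 just upstream had 24.7-fold 233 bp away, both in chr2:27564026-27571370. Inside the gene followed 22.8-fold and 30.5-fold in intron 1, 24.9-fold in intron 2 at 252 bp from the start of Rxra-205, 16.8-fold in intron 4 and 32.7-fold in intron 9. The highest, at 27648960 in chr2:27644747-27651590, lay 81954 bp after the canonical start and 15850 bp from any annotated start, and a second summit of 30.8-fold was in the same interval. The remaining 2 intervals had their highest summit outside the region of the gene, at 22.9-fold beside the non-coding Gm75679 upstream and at 11.9-fold downstream of the gene end. Other starts inside the gene were weak, with 2.42- to 4.32-fold within 500 bp of the starts of Rxra-202, Rxra-203, Rxra-206 and Rxra-207.

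Rxrb encodes RXRβ and is the shortest of the 6 genes (chr17:34250759-34257376, plus strand), in the gene-dense major histocompatibility complex. Its first interval, chr17:34239527-34253848, was 14322 bp wide and also held the starts of Hsd17b8, Ring1 and Slc39a7. The value of 47.1-fold that this interval takes by the rule came from a summit 2 bp from the start of Hsd17b8, 3711 bp from Rxrb. The summit of Rxrb itself was 38.0-fold, 32 bp upstream of the start that 18 transcripts share within 100 bp, followed by 20.4- and 19.4-fold 326 and 514 bp inside the gene. Slc39a7, which encodes a zinc transporter, is transcribed the other way, and the bases between both starts are printed because this summit stands over them. The capitals mark GCATGCGC, the word of NRF1, a factor of housekeeping promoters, which was looked for after the sequence had been read and is in 3.69% of protein-coding promoters from 250 bp before to 50 bp after the start.

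Rxrb and Slc39a7, chr17:34250657-34250758, plus strand: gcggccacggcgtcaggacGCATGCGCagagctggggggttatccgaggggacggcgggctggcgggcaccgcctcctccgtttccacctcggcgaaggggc

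The promoter of Rxrb was the one with the highest CpG content of the canonical promoters, at 69.3% GC and an observed over expected CpG ratio of 1.03. Rxra had 72.7% and 0.764, Rarb 49.3% and 0.636, Rara 62.7% and 0.620, Rarg 51.3% and 0.510, and Rxrg 47.7% and 0.363. The medians over protein-coding genes were 54.3% and 0.517. Rxrg, with the lowest summit at its start, had the lowest GC and CpG content of the 6 canonical promoters. At Rarb the start of Rarb-213, 140 bp after the canonical one and closer to the 36.2-fold summit, had 65.3% and 0.761. The second interval of Rxrb, chr17:34254123-34259449, reached 7.01-fold over intron 7 and also held a start of Col11a2.

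Rxrg encodes RXRγ, known from muscle and the nervous system. Its 5 intervals (gene at chr1:167425673-167467193, plus strand) held only 8 summits. The canonical start lay in chr1:167425190-167426569, with 10.3-fold at 268 bp after it, and the inner start of Rxrg-202 had 7.66-fold 99 bp away. The strongest site was again in an intron. It was in chr1:167464350-167466005, in intron 9, with 12.7-fold at 38969 bp after the canonical start. The other 2 intervals were at 1.96- and 2.42-fold.

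In 3 of the 6 receptor genes, Rara, Rxra and Rxrg, the strongest summit lay over 1 kb from every start of the gene, beside 25.2% of the 18077 protein-coding genes with a summit. Summits that were over 1 kb from a start of any gene were then set beside those near an own start. The strongest distal summit was 1.40 times the one near a start at Rara, 1.31 times at Rxra, 1.23 times at Rxrg, 0.948 times at Rarb, 0.435 times at Rarg and 0.081 times at Rxrb. Rxra had 8 distal summits of at least 10-fold, Rarb 6, Rara 5, Rarg and Rxrg 1 each, and Rxrb 0. Ratios this close to 1 have no error from which to tell them from 1.

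**Figure D3:**
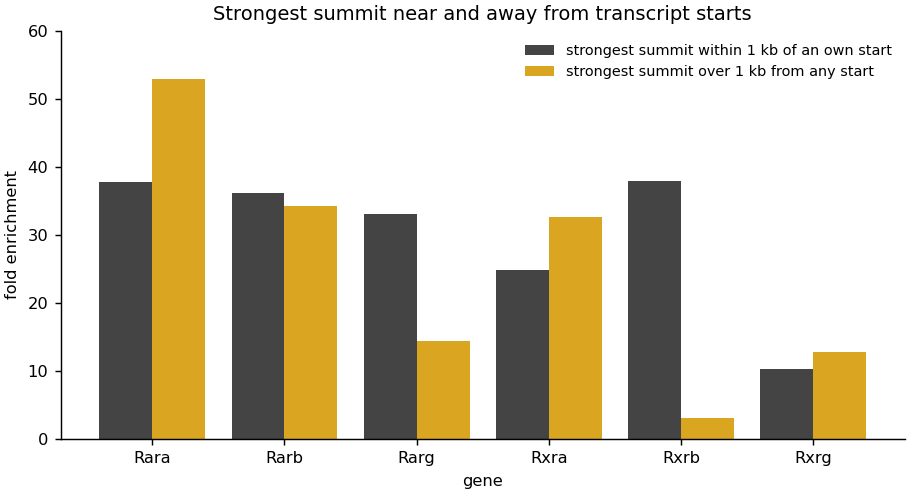
Fold enrichment (bars from 0) of the strongest summit within 1 kb of a start of the gene and of the strongest summit over 1 kb from any annotated start, for each receptor gene. The distal bar is the taller one at Rara (53.0 beside 37.8), Rxra (32.7 beside 24.9) and Rxrg (12.7 beside 10.3), and hardly rises above 0 at Rxrb (3.08 beside 38.0).

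The sequence under these distal summits is given for the 4 genes in which it was the strongest or nearly the strongest site, as 100 bases of GRCm39 centred on the summit. Capitals mark a match to a word searched above or, where there was none, the 10 bases in the middle. At Rara the match is a single half-site, TGACCT on this strand, and at Rxrg it is the CTCF word on the opposite strand. At Rarb and Rxra no searched word was found in the 100 bases. None of the 4 held a direct repeat of half-sites.

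Rara, chr11:98842472-98842571, plus strand: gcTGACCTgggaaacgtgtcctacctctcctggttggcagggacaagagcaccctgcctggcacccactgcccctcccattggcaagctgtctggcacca
Rarb, chr14:5985555-5985654, plus strand: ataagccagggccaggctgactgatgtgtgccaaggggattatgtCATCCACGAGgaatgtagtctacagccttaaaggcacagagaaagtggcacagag
Rxra, chr2:27648910-27649009, plus strand: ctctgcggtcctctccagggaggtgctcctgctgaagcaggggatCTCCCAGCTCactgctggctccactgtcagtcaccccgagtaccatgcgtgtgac
Rxrg, chr1:167464723-167464822, plus strand: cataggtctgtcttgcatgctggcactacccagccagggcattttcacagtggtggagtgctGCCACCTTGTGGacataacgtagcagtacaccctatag

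The end of a region decides whether an interval counts. The first and last intervals counted had 4.58- and 5.83-fold at Rara, 1.90 and 4.26 at Rarb, 17.2 and 4.45 at Rarg, 22.9 and 11.9 at Rxra, 47.1 and 7.01 at Rxrb, and 10.3 and 12.7 at Rxrg, with the upstream edge first. Those just outside had 5.63 and 2.16, 5.04 and 2.23, 1.77 and 2.10, 1.83 and 1.90, 2.03 and 3.08, and 1.70 and 9.82 in the same order. The last of these, 5245 bp downstream of Rxrg, was the highest interval just outside. Of the 116 intervals, 112 had their highest summit inside the region.

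The receptor genes were next placed among the 49 nuclear receptor genes of the mouse, of which 48 had an interval within 1 kb of a start and 33 reached 20-fold. In descending order of that interval Rxrb was number 12, Rara 18, Rarb 20, Rarg 21, Rxra 24 and Rxrg 41. By the highest summit within 1 kb they were 16, 17, 19, 21, 27 and 40. In the order by interval the neighbours of Rxrb were Ppara at 47.7-fold, a regulator of fatty acid oxidation, and Nr1d1 at 46.8, a circadian repressor. Around Rara and Rarb stood Nr2f2 at 39.3 and Ppard at 37.6. Nr4a2 at 31.0, Nr2c1 at 30.6 and Nr2f1 at 29.3 were next to Rarg and Rxra. Pgr, for the progesterone receptor, at 11.5 and Nr5a1, for a factor of steroid-producing glands, at 8.18 were next to Rxrg. The interval value of Rxrb, 47.1, came from the summit at the start of Hsd17b8. By the highest summit within 1 kb Rxrb, at 38.0, stood between Nr2f2 and Rara. By that measure Nr1d1 was at 34.4 and Nr2f1 at only 8.84. With 1 pooled value per gene, no 2 neighbours in either order can be told apart by an error. Nr1d2 was the highest of the 49 at 101.0-fold.

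**Figure D4:**
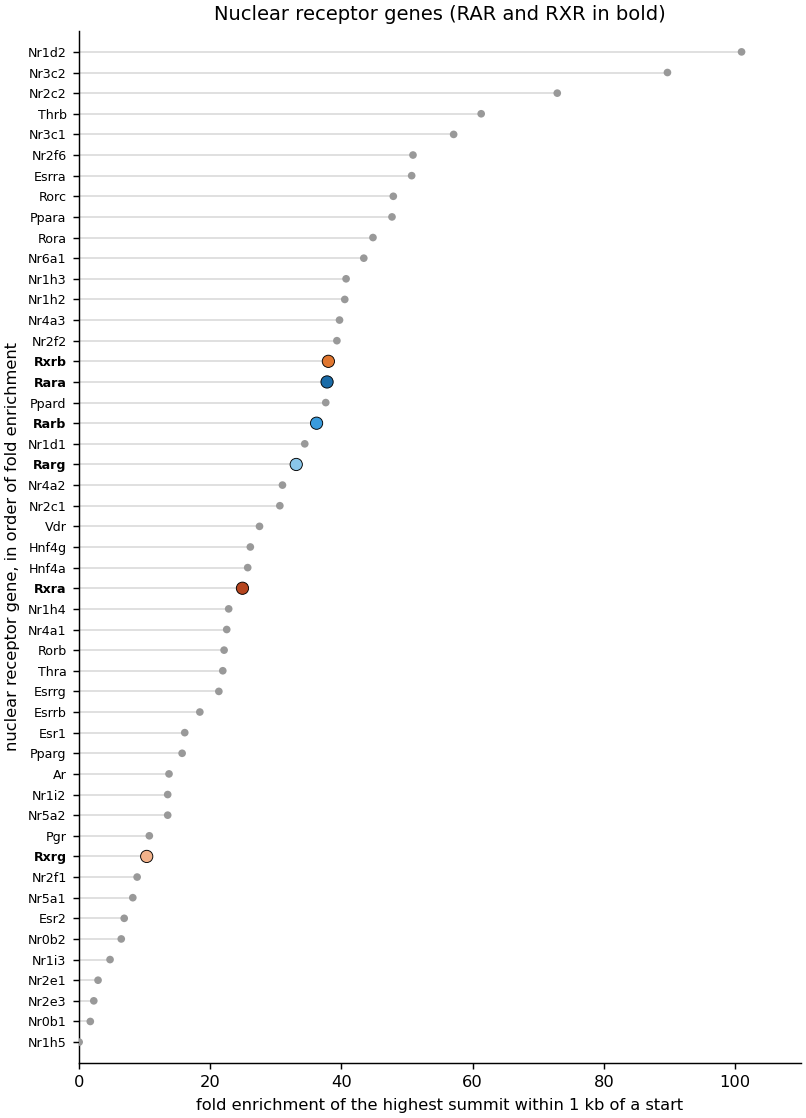
Fold enrichment of the highest summit within 1 kb of a transcript start (horizontal axis) for the 49 nuclear receptor genes in descending order, with RAR and RXR genes in bold and coloured. Rxrb, Rara, Rarb and Rarg sit close together between 33.1 and 38.0, Rxra is lower at 24.9 and Rxrg lies near the bottom at 10.3.

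Genes that act with the receptors were counted by the interval within 1 kb of a start, over 44 genes in 7 roles. All 44 had such an interval, and 22 of them one of at least 20-fold, beside the 77.9% and 51.6% given above. All 5 corepressors and coactivators reached 20-fold, from Ncoa3 at 22.7 to Ncoa2 at 84.0, and so did 10 of 13 genes for partners of RXR. Thrb, for a thyroid hormone receptor, was the highest of the partners at 61.3, and Nr1i3 was the lowest at 4.71. Vdr, for the vitamin D receptor, was at 27.5.

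Genes that handle the ligand were lower. Of the 5 for uptake and transport 1 reached 20-fold, Lrp2, for the proximal tubule receptor megalin that takes up retinol-binding protein, at 33.1, and Rbp4, for that binding protein, was lowest at 2.68. Of the 7 for binding and storage 2 did, with Fabp5 highest at 35.4 and Crabp1 lowest at 2.36. In the role of synthesis and reduction, which holds enzymes of both directions, 2 of 7 did. Rdh10, the first step from retinol, was highest at 57.1, and Aldh1a2, which makes retinoic acid in the embryo, was lowest at 10.3. None of the 3 Cyp26 genes, which break retinoic acid down, reached 20-fold, with Cyp26b1 at 13.7 and Cyp26c1 at 1.70. Among the 4 known target genes 2 reached it, and Hoxb1 was lowest at 7.79. The receptor genes reached it in 5 of 6, beside 51.6% of protein-coding genes. They were thus nearer to the co-regulators and the partners of RXR than to the genes of the ligand, on counts that are small in every role. By the highest summit within 1 kb, which can be lower than the interval value, the count of each role was the same. The highest and lowest genes named here hold for the interval value alone. By the summit Cyp26b1 was at 8.05, and Hoxb1, still at 7.79, was not the lowest target gene.

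**Figure D5:**
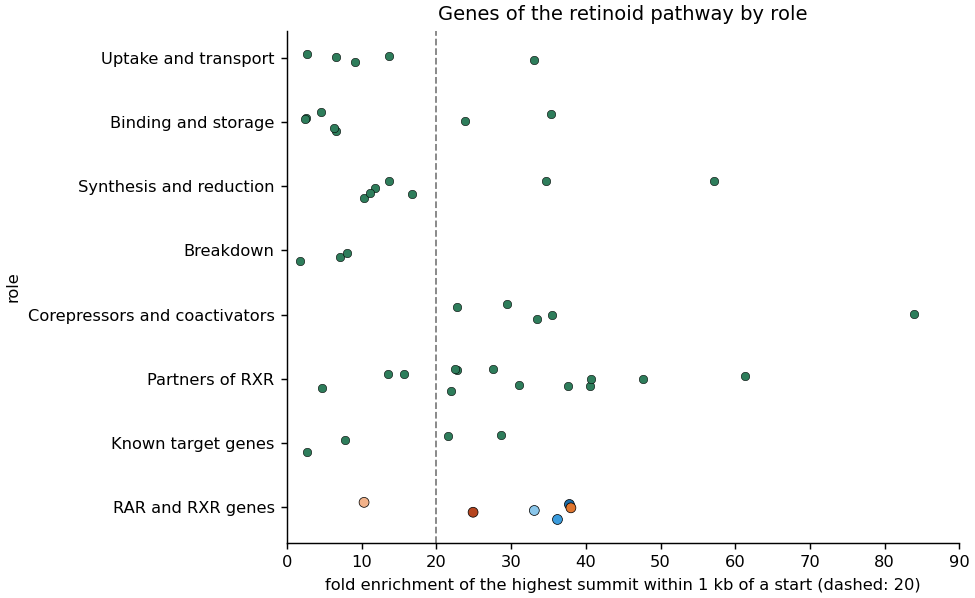
Fold enrichment of the highest summit within 1 kb of a transcript start (horizontal axis) for 44 genes of the retinoid pathway and the 6 receptor genes, by role (vertical axis, points spread for legibility), with a dashed line at 20. All 5 corepressors and coactivators and 5 of 6 receptor genes lie right of the line, and all 3 breakdown genes left of it.

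The tissue label was checked against marker genes by the highest summit within 1 kb of a start. Proximal tubule markers stood between 7.40- and 33.1-fold, those of the thick limb and distal tubule between 8.51 and 38.2 and those of the collecting duct between 4.19 and 41.4. Markers of podocytes were at 3.54 to 9.76, of stroma at 2.62 to 10.9 and of endothelium at 2.68 to 4.12. Markers of other organs were at most at 3.40. The immune markers ranged from 1.96 for Ptprc to 20.3 for Csf1r and 25.0 for Cd74, so that the pool also holds peaks at markers of cells that are not tubule cells. Their part in the values of the receptor genes was not tested.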

How the data were processed

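Nuclei of mouse kidney were profiled by ATAC-seq in 6 libraries, 3 WT and 3 Acly cKO. For the authors' files, fastp trimmed the reads and Bowtie2 2.3.4.3 aligned them to mm39. Duplicates and multiply mapped reads were dropped, MACS3 3.0.0 called peaks and summits at a q of 0.05, and bedtools 2.29.1 took out blacklisted regions. The methods give a read extension of 200 and a shift of 100 bases without a minus sign. A negative shift would centre reads on the cut site and a positive one would not, so distances to summits are approximate. The submitters' processing notes also name deepTools 3.5.1.

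The deposited peak list holds, per summit, the fold enrichment over background as a linear ratio computed by the authors' caller, the −log10 of its p and of its q, a score that the authors' caller wrote as 10 times the −log10 q, and the summit's distance from the interval start. A second deposited list gives the −log10 q of 750624 summits as called. The filter had taken out 874 of them, and 0 of these lay at the receptor genes. Among the summits at the receptor genes, equal fold enrichments came with equal −log10 q values on every chromosome, as a single genome-wide background would give. The values thus show no correction for the local level of signal. Without columns per library, counts, depth and errors are unknown.

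Rows that share chromosome, start and end were treated as 1 interval, with the values of the summit that has the highest −log10 q. Coordinates count from 1 on GRCm39, and sequences were read from the GRCm39 genome. Starts within 100 bp were merged. A gene was compared with the 21757 protein-coding genes of GENCODE M39. The receptor genes, gene lists, words and thresholds were chosen with earlier results of these data known. Genes named are the 6 receptors with each interval of at least 10-fold, the highest and lowest pathway gene in each role by the interval within 1 kb, genes next to a receptor gene in rank and the markers. Vdr and Nr1d2, the highest nuclear receptor gene, were named after their values were seen, and the values of 2 listed genes are not reported here. Grouping, overlap and word search were tested on simulated data with known answers. Python 3.11.15 was used with numpy 2.4.6, pandas 2.3.3, pysam 0.24.0 and matplotlib 3.10.9.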

Additional observations from a re-analysis of the deposited data

How the results depend on the processing

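Of 29 alternatives, 22 stayed within 1.5 times the reported count. Some of these could not have moved, so the count of 22 is no measure of robustness. Ranking by −log10 q ordered the nuclear receptor genes as fold enrichment did. A window of 3 kb cannot lower a count that was already complete at 1 kb. The 116 intervals became 652 when summits were counted and 74 at a q under 1e-05. The 37 intervals of at least 5-fold became 22 at 10-fold and 56 at 3-fold. The 3 windows with a direct repeat became 5 in windows of 500 bp, 7 around every summit and 1 with AGGTCA as the only half-site. These changes follow from the wider or narrower rule itself. The count of receptor genes with an interval within 1 kb of a start was 6 under every alternative, and that of genes with one of at least 20-fold was 5, or 4 when the highest summit of the interval had to lie within 1 kb. No paired analysis was possible because the only deposited call pools the libraries, and no library could be left out for the same reason. The settings that read any summit within 1 kb of a start were chosen after seeing the data. Weak peaks depend on the unknown depth of the pool.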
